A study of Homo sapiens with 12 samples.

Results

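The growth of OE19 cells without drug was read from a pooled knockout screen by comparing the sgRNAs left after 14 days in vehicle with those present at the start. OE19 is an established HER2-amplified line that the labels call gastric cancer. Cells were infected with the GeCKO V2 library, a lentiviral pool that carries Cas9 and 1 sgRNA per vector, at a multiplicity of infection of about 0.3, and were held in puromycin at 1.5 µg/mL for 7 days. The 2 baseline libraries came from cells taken when selection ended, with no treatment, and the 2 vehicle libraries from cells that then grew for 14 days with DMSO. All 4 had therefore been through transduction and selection by the same protocol, and losses that took place before the end of selection lie outside the comparison. The protocol states that 2 separate infections were done per line, and the labels do not say which infection each library came from. These 4 libraries are 4 of the 12 in the series. The 4 libraries of N87, an established HER2-amplified gastric cancer line given puromycin at 0.75 µg/mL and otherwise grown in the same 2 conditions, served as the contrast, and the 2 OE19 libraries grown with 1 µM lapatinib, an inhibitor of the HER2 and EGFR kinases, are quoted for single genes. All sgRNAs in the table were members. Of its 123411 entries, 2000 are control guides that target no gene, and 122790 entries held at least 40 counts over the 4 libraries and were tested. They belonged to 20894 gene names, microRNAs included, usually with 6 sgRNAs per protein-coding gene and 4 per microRNA. Guide counts come from genomic DNA and hold no expression, so the labelled cell type could not be checked against marker genes.

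In a pooled knockout screen each cell carries the guide that marks its own lost gene, and the guide is copied with the cell. Guides against genes that the cell needs to divide become rarer as the population grows, and guides against genes that hold division back become more frequent. The genes that most human lines need run the basic machinery of the cell, which makes ribosomes, transcribes and splices RNA, charges transfer RNAs, copies DNA and separates chromosomes. A smaller set depends on the line, on the oncogene that drives it and on the nutrients it takes up. ERBB2 encodes HER2, the receptor kinase whose gene is amplified in these lines.

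The deposited table held 23851874 and 24780798 counts in the baseline libraries and 28801106 and 18428467 in the vehicle libraries, and 32 to 160 entries per library had no count. The baseline libraries resembled each other more (Pearson's r of counts across entries 0.977) than the vehicle libraries did (0.927), and in both pairs the spread exceeded counting error (chi-square per degree of freedom 1.87 and 6.28). Counts are PCR reads without molecular identifiers, so they are not independent molecules. With 2 libraries against 2, an exact two-sided permutation test of a single value cannot go below p = 0.333, so the tests below rest on edgeR's quasi-likelihood model, which shares information across sgRNAs. The sgRNA p-values rest on the spread between the 2 libraries of a condition. The gene p-values combine the ranks of a gene's sgRNAs in these same libraries. Their units are therefore sgRNAs, and they do not measure the spread between infections.

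More sgRNAs and genes were called lower than higher. Of the 122790 sgRNAs tested, 1096 were lower in vehicle than at baseline (0.893%) and 14 were higher (0.0114%) at an adjusted p under 0.05 in edgeR's quasi-likelihood test. The balance of single sgRNAs depended on the vehicle libraries and was nearer to even when either of them was left out. Those fits called more sgRNAs in both directions. Their spread came from the baseline libraries alone, which resembled each other more than the vehicle libraries did. Ranked sgRNA p-values were combined per gene by rank aggregation, and 319 genes were lower (1.53%) while 0 were higher (0%). At an unadjusted p under 0.05, 1042 genes were higher, and the lowest adjusted p on that side was 0.623, while 1461 genes were lower. DESeq2 in place of edgeR also called 0 genes higher, and summing counts over the sgRNAs of a gene called 104, described below. A gene is described here by the median over its sgRNAs of the log2 fold change, vehicle over baseline, with the SD over sgRNAs. The 319 genes had a median of −0.79 on this scale against 0.01 over all genes tested, and ranged from −2.10 to 0.01. Of them, 70 were at or below −1 and 293 at or below −0.5. The highest, ACTR6, a nuclear actin-related protein, had a median of 0.01 (SD 1.02) with 2 of its 6 sgRNAs lower. In 314 of the 319 both vehicle libraries lay below both baseline libraries in median normalized count, which also held for 24.1% of all genes.

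**Figure D1:**
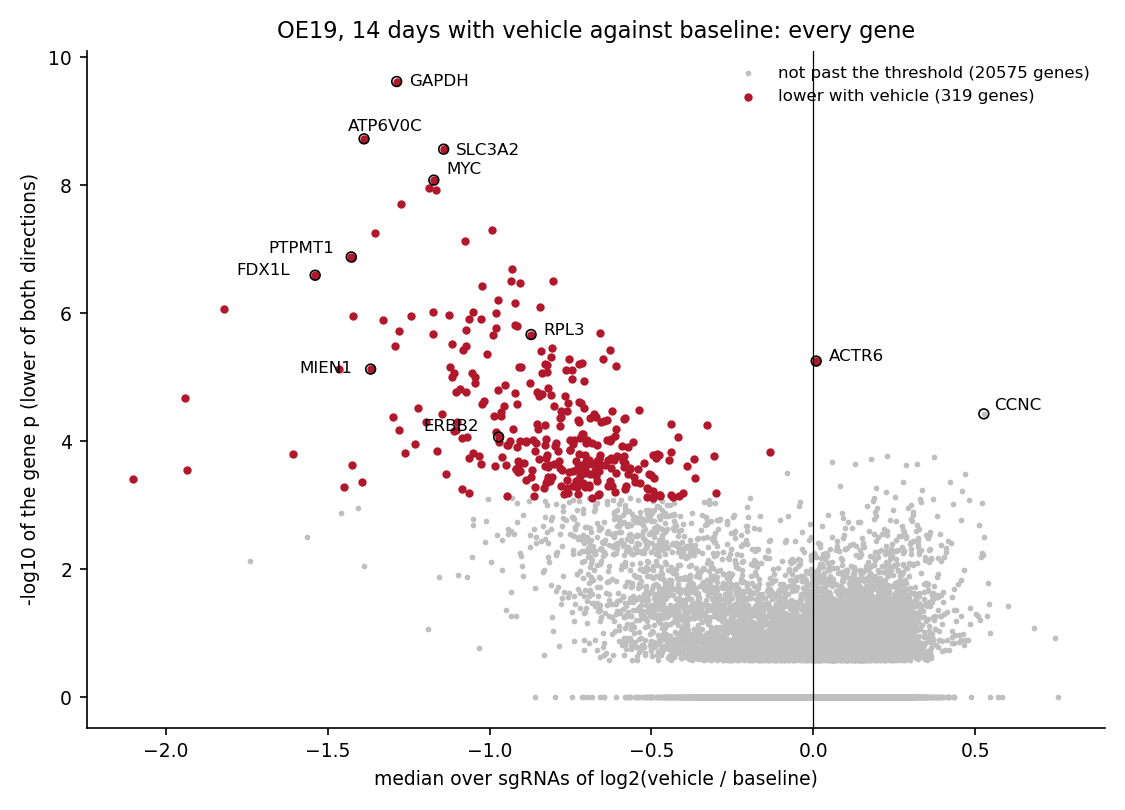
Each point is 1 of the 20894 genes tested in OE19, with the median over its sgRNAs of log2(vehicle / baseline) on the horizontal axis and −log10 of the lower of its 2 one-sided gene p-values on the vertical axis. The 319 red genes past the threshold lie to the left of 0 apart from ACTR6 at 0.01, and CCNC at 0.53 is a grey point to the right.

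The call for single genes depended on the libraries. Of the 319 genes, 92 were called whichever of the 4 libraries was left out, whereas 79 lost their call without baseline 1, 81 without baseline 2, 118 without vehicle 1 and 183 without vehicle 2. The genes just inside the threshold were RAE1 at −0.43, GUK1 at −0.68 and PRMT5 at −0.50, and those just outside were CIAO1 at −0.69, TUBGCP6 at −0.19 and IGHMBP2 at −0.57.

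GAPDH, the glycolytic enzyme that oxidises glyceraldehyde 3-phosphate, had the lowest gene p. Its median normalized count over 6 sgRNAs was 286 and 296 at baseline and 98.1 and 100 in vehicle (log2 fold change −1.29, SD 0.68, adjusted p = 4.99e-06 by rank aggregation of edgeR p-values). ATP6V0C, which forms the proton-conducting ring of the vacuolar ATPase, went from 101 and 121 to 38.7 and 35.7 (−1.39, SD 0.73, adjusted p = 1.90e-05). In both genes the vehicle libraries were well below the baseline libraries and close to each other. SLC3A2, the heavy chain shared by several amino acid exchangers, went from 126 and 128 to 42.0 and 43.7 (−1.14, SD 0.45, adjusted p = 1.90e-05). MYC, the transcription factor that drives growth and ribosome production, went from 133 and 149 to 67.1 and 51.6 (−1.17, SD 0.48, adjusted p = 4.07e-05). All 6 sgRNAs of each of these 4 genes were lower in vehicle, and each gene was called whichever library was left out. ATP6V0C and SLC3A2 were the 2 genes of the 117 named by rule that were called under every alternative setting tried.

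**Figure D2:**
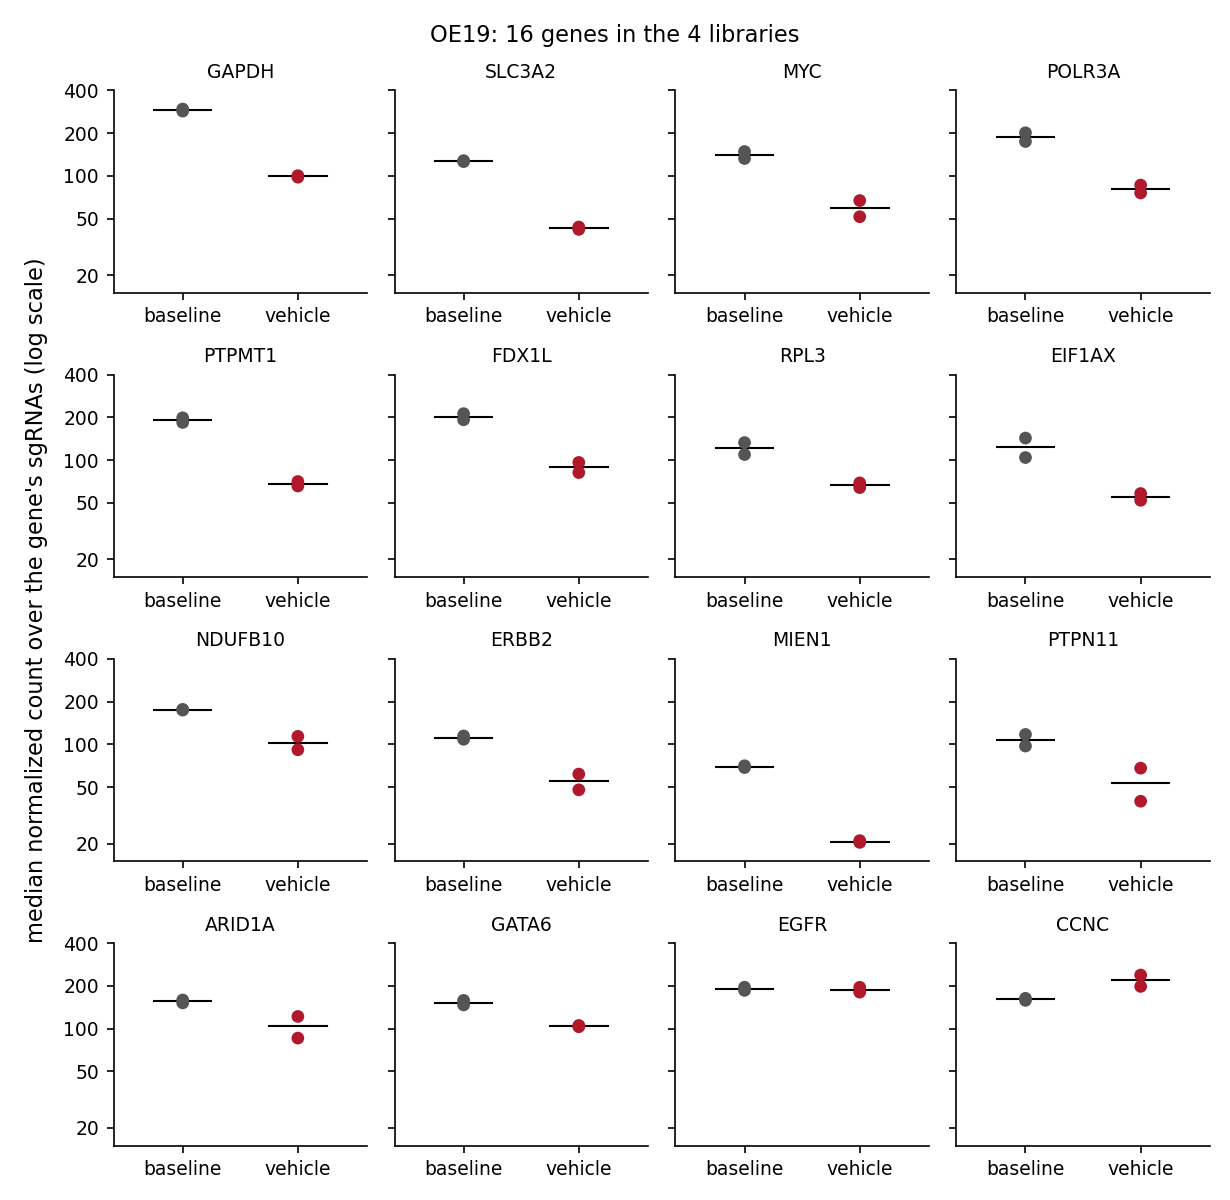
Median normalized count over the sgRNAs of a gene (log axis) in the 2 baseline libraries (grey) and the 2 vehicle libraries (red) of OE19, with a line at the mean, for 16 genes. The vehicle libraries lie below the baseline libraries in the first 14 panels, overlap them for EGFR and lie above them for CCNC, which was not called.

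Protein synthesis genes were among the most depleted. Of 79 cytosolic ribosomal proteins, 15 were lower, with a list median of −0.50, and 75 of the 79 were below 0. For comparison with this and later counts below 0, 9694 of all 20894 genes tested had a median below 0. RPL23A, a protein of the large subunit near the peptide exit tunnel, had −1.01 (SD 0.88, adjusted p = 0.00186), RPS28 of the small subunit −0.98 (SD 0.35, adjusted p = 0.000682) and RPL34 −0.77 (SD 0.88, adjusted p = 0.00255), and all 3 were called whichever library was left out. RPL3 was even among its guides at −0.87 (SD 0.14), but its adjusted p of 0.00113 became 0.0993 without baseline 2 and 0.231 without vehicle 2. Of 20 cytosolic aminoacyl-tRNA synthetases, the enzymes that load amino acids onto transfer RNAs, 7 were lower with a list median of −0.52. YARS at −1.17 and VARS at −1.06, for tyrosine and valine, were called whichever library was left out. Of 33 translation factors 5 were lower (list median −0.38), with EIF1AX, which helps the ribosome scan for the start codon, at −1.33 (SD 0.67, 5 sgRNAs, adjusted p = 0.000858).

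Ribosome production lies upstream of these. Of 64 genes for ribosome biogenesis and RNA polymerases I and III, 14 were lower with a median of −0.44. POLR3A, the largest subunit of RNA polymerase III, which makes transfer RNAs and 5S RNA, went from 175 and 201 to 75.9 and 86.2 (−1.19, SD 0.35, adjusted p = 4.07e-05). BRF1, the factor that recruits that polymerase, went from 257 and 260 to 126 and 110 (−1.16, SD 0.29, adjusted p = 4.07e-05). In both genes all 6 sgRNAs were lower, and the libraries of the 2 conditions did not overlap. RRP9, a protein of the U3 particle that processes ribosomal RNA, had −1.27 (SD 0.46, adjusted p = 5.80e-05), and PES1, needed to mature the large subunit, −1.07 (SD 0.34, adjusted p = 0.000155). These 4 genes were called whichever library was left out. IMP4, another U3 protein, had −0.84, and its adjusted p of 0.000782 became 0.137 without vehicle 1.

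Genes for transcription and splicing were also depleted. Of 40 genes of RNA polymerase II and its general factors 9 were lower (list median −0.32), among them GTF2H2 of the repair and initiation complex TFIIH at −0.88 (SD 0.55) and CDK9, the kinase that releases paused polymerase, at −0.44 (SD 1.34), both called whichever library was left out. Of 60 core spliceosome genes 4 were lower although 58 were below 0 (list median −0.30). PRPF19, a ubiquitin ligase of the active spliceosome, had −1.03 (SD 0.76), and its adjusted p of 0.0222 became 0.0579 without vehicle 1. DHX15, LSM2 and LSM3 were the other called genes of this list. DHX15 lost its call without vehicle 2, LSM2 without baseline 2 or without vehicle 2, and LSM3 without each of the 4 libraries. Outside the list, LSM11, a protein of the U7 particle that processes histone messages, had −0.99 (SD 0.72, adjusted p = 0.000127) and lost its call without vehicle 2. Of 33 subunits of Mediator, which links activators to the polymerase, 4 were lower with a list median of −0.22: MED14, the scaffold of the complex, at −1.28 (SD 0.51, adjusted p = 0.0108), MED8 at −0.85 (SD 0.56, adjusted p = 0.00487), MED19 at −0.71 and MED17 at −0.58. MED14 and MED8 were called whichever library was left out. MED19 was lost without each of the 4 (adjusted p 0.158 to 1), and MED17 was lost without baseline 1 (0.276), vehicle 1 (0.267) and vehicle 2 (0.512).

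Of 54 DNA replication genes 5 were lower (list median −0.34) and of 65 mitosis and cell cycle drivers 8 (−0.32). RPA3, a subunit of the protein that coats single-stranded DNA, had −1.07 (SD 0.61), and its adjusted p of 0.0131 became 0.119 without vehicle 1. ANAPC5, a subunit of the ubiquitin ligase that starts anaphase, had −0.54 (SD 0.90, 5 sgRNAs, adjusted p = 0.00695) and was called whichever library was left out. SMC1A, a ring subunit of cohesin, which holds sister chromatids together, had −0.93 (SD 0.71, adjusted p = 0.000407, 0.132 without vehicle 2). The count of PPP4C, the catalytic subunit of protein phosphatase 4, went from 177 and 160 to 54.9 and 73.8 (−1.35, SD 0.61, adjusted p = 0.000127). PPP2CA, that of protein phosphatase 2A, went from 171 and 191 to 95.8 and 101 (−1.02, SD 0.68, adjusted p = 0.000437). Neither gene's libraries overlapped between the conditions, and both were called whichever library was left out.

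The lists on protein turnover and transport had low medians but few calls. Of 33 proteasome genes 1 was lower, PSMB3 at −0.77, although 31 were below 0 and the list median was −0.37. Of 33 genes of the CCT chaperonin and the coatomer 1 was lower, TCP1 at −0.87, with a list median of −0.36. PSMB3 (adjusted p = 0.0459) lost its call without baseline 2 (0.084), vehicle 1 (0.0622) and vehicle 2 (0.172), and TCP1 (0.0242) without each of the 4 libraries (0.0913 to 0.824). Of 16 vacuolar ATPase genes 2 were lower (−0.33), ATP6V0C and ATP6AP1, and of 27 nuclear pore and transport genes 3 (−0.21), RCC1, NUP93 and RANGAP1. Without vehicle 2 the adjusted p was 0.128 for ATP6AP1, 0.0618 for RCC1, 0.786 for NUP93 and 0.104 for RANGAP1. Over the 6 lists of ribosomal proteins, proteasome, spliceosome, RNA polymerase II, DNA replication and cytosolic synthetases together, 41 of 286 genes were lower (14.3%, against 1.53% of all genes), 260 were below 0 and the median was −0.38. The median was −0.37 for vehicle 1 over baseline 1 and −0.38 for vehicle 2 over baseline 2. Their share of the library's counts went from 1.23% and 1.28% at baseline to 1.00% and 1.02% in vehicle. GTF2H2, GAPDH and most ribosomal proteins have pseudogenes or close copies, and whether their guides match more than 1 site was not checked here.

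**Figure D3:**
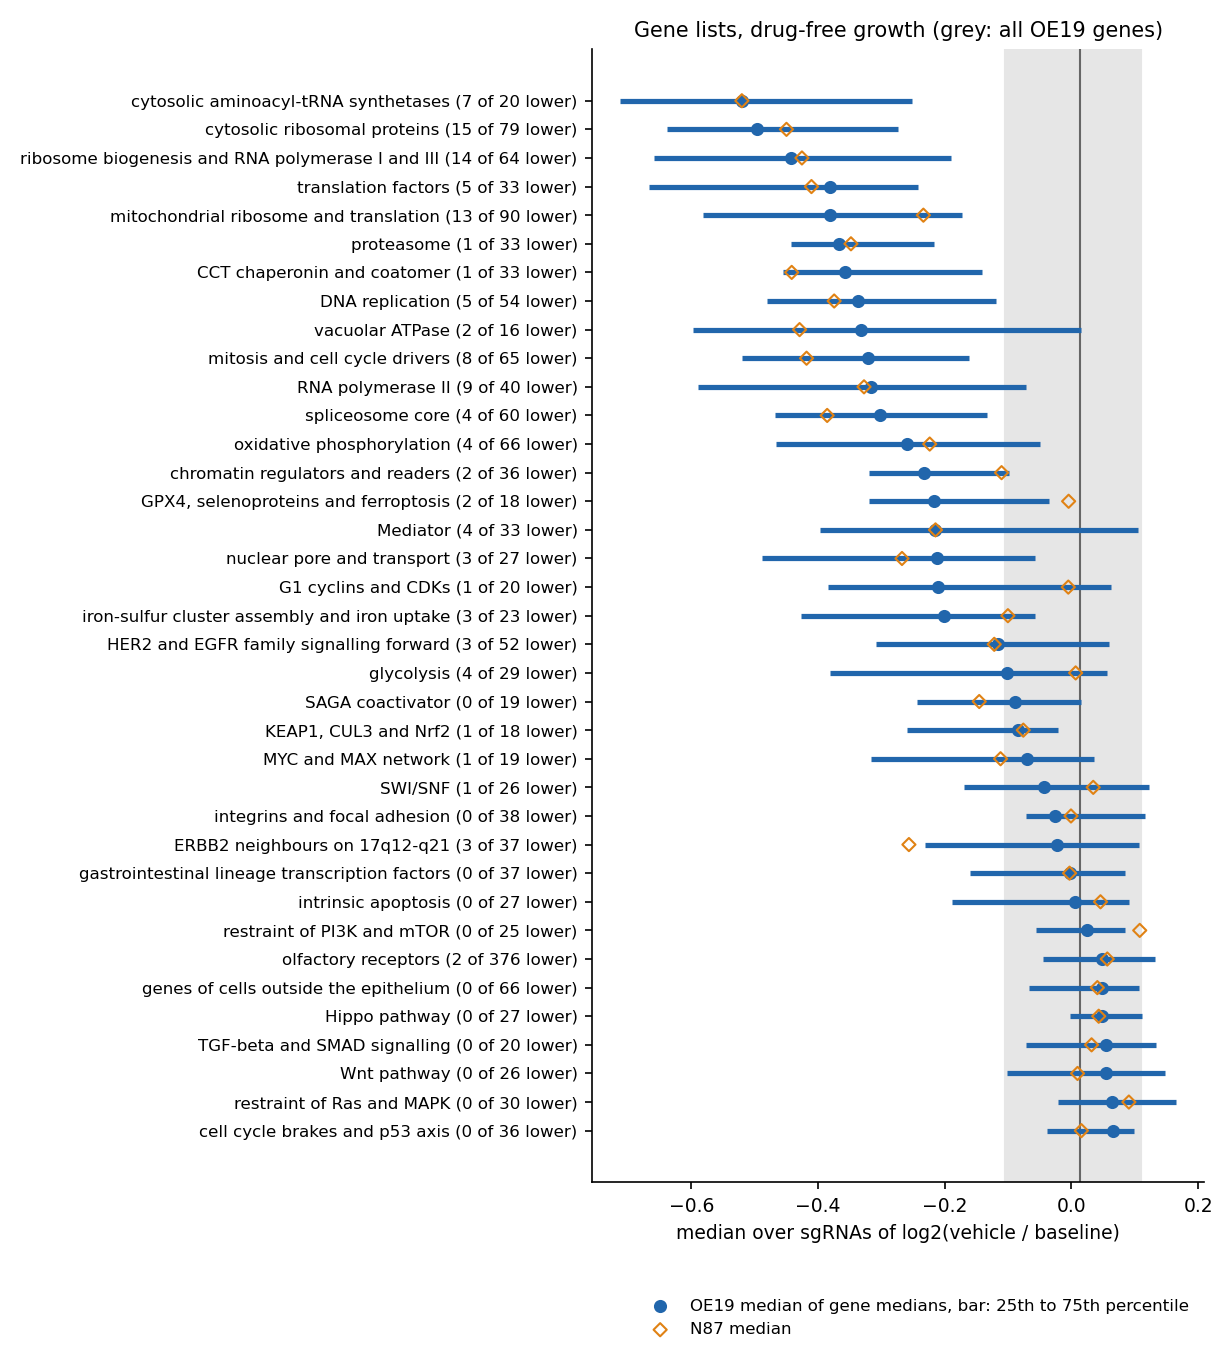
Median log2(vehicle / baseline) of each gene list in OE19 (blue, bar from the 25th to the 75th percentile over genes) and in N87 (open diamond), with the number called lower in OE19, against the same quartiles over all OE19 genes (grey band, line at the median of 0.01). Cytosolic synthetases at −0.52 and ribosomal proteins at −0.50 are at the top, and the 7 lists of genes that restrain growth or promote cell death or Nrf2 turnover have medians inside the grey band, from −0.08 to 0.07.

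Mitochondria made up a second block. Of 90 genes for the mitochondrial ribosome and translation 13 were lower in OE19 with a list median of −0.38, and 82 were below 0. In N87 the list median was −0.23 and 3 were lower. Whether the list differs between the lines was not tested, and 0 of its genes passed the test of the line difference. MARS2, the mitochondrial methionine synthetase, went from 158 and 140 to 78.2 and 86.8 (−1.04, SD 0.53, adjusted p = 0.00297) and was called whichever library was left out. AARS2, that for alanine, went from 238 and 227 to 139 and 153 (−0.84, SD 0.57, adjusted p = 0.00454), which became 0.106 without baseline 1 and 0.217 without vehicle 2. Both genes had no overlap between the conditions. Of 66 genes of oxidative phosphorylation 4 were lower (−0.26). NDUFB10 of complex I had −1.11 (SD 0.63, adjusted p = 0.00295) and was called whichever library was left out, while the calls of NDUFV1, ATP5B and ATP5F1 were lost without at least 2 of the libraries. PTPMT1, a mitochondrial phosphatase needed to make cardiolipin, went from 185 and 199 to 70.8 and 65.8 (−1.43, SD 0.78, adjusted p = 0.000239). Of 23 genes for iron-sulfur clusters and iron uptake 3 were lower (−0.20). The count of FDX1L, the ferredoxin also known as FDX2 that hands electrons to cluster assembly, went from 213 and 193 to 81.8 and 96.5 (−1.54, SD 0.96, adjusted p = 0.000380). FAM96B, a cytosolic cluster carrier, had −1.29 (SD 0.74, adjusted p = 0.00159). PTPMT1, FDX1L and FAM96B were called whichever library was left out. In the OE19 libraries grown with lapatinib, against the same baseline libraries, the list medians were −0.01 for mitochondrial translation and 0.02 for oxidative phosphorylation, and NDUFB10 had 0.39 and MARS2 0.21. The 2 comparisons share the baseline libraries, and the difference between them was not tested here.

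Beyond the mitochondria, several single metabolic genes were lower. Of 29 genes of glycolysis and neighbouring routes 4 were lower with a list median of −0.10: GAPDH, ALDOA at −0.92 (SD 0.46, adjusted p = 0.000993), TPI1 at −0.64 and TKT, of the pentose phosphate route, at −0.66. TPI1 (adjusted p = 0.00842) lost its call without baseline 1 (0.0661) and vehicle 1 (0.51). Of 18 genes for GPX4, selenoproteins and ferroptosis 2 were lower (−0.22), GPX4 and SLC3A2. GPX4, the selenoenzyme that reduces lipid peroxides, went from 161 and 175 to 60.8 and 87.4 (−0.82, SD 0.60, adjusted p = 0.0232) and was called whichever library was left out.

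Other amino acid transporters and enzymes that build nucleotides were looked up after their values had been seen, and a minority were called. Of 10 transporters, SLC3A2 included, 3 were lower, as were 3 of 11 pyrimidine, 2 of 10 folate and 1 of 8 purine genes. SLC7A5, the light chain that with SLC3A2 forms the large neutral amino acid exchanger, had −0.62 (SD 1.02, 4 of 6 sgRNAs lower), and its adjusted p of 0.00704 became 0.117 without baseline 2 and 0.082 without vehicle 2. SLC7A1, an importer of arginine and lysine, went from 128 and 152 to 79.99 and 89.7 (−0.91, SD 0.51, adjusted p = 0.00239, 0.0732 without vehicle 1). The other 7 transporters examined, SLC7A11 and SLC1A5 among them, were not called and had medians from −0.24 to 0.19.

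CAD, which carries out the first steps of pyrimidine synthesis, went from 175 and 177 to 73.4 and 90.2 (−1.09, SD 0.50, adjusted p = 0.00418) and was called whichever library was left out. DHODH, the mitochondrial enzyme of the next step, went from 154 and 171 to 47.6 and 97.0 (−0.91, SD 0.53), and its adjusted p of 0.0230 became 0.0825 without vehicle 1 and 0.0775 without vehicle 2. All 6 sgRNAs of both genes were lower. UMPS, which completes the route, was not called (−0.30, SD 0.95, adjusted p = 0.134). DUT, which removes dUTP, had −0.92 (adjusted p = 0.0155, 0.191 without baseline 2 and 1 without vehicle 2). Of the folate enzymes, FPGS, which traps folates in the cell, had −0.72 (adjusted p = 0.00565, 0.0643 without vehicle 2) and MTHFD1 −0.64 (SD 0.52, adjusted p = 0.0137), the latter called whichever library was left out. SHMT1, SHMT2 and MTHFD2 were not called (−0.25 to −0.12). Of 8 purine synthesis enzymes only PPAT, the first of the route, was called (−0.59, adjusted p = 0.0232), and not without baseline 1 (0.0539) or vehicle 1 (0.0902).

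ERBB2 itself was depleted. Its median count was 109 and 115 at baseline and 47.9 and 61.8 in vehicle (−0.97, SD 0.69, 6 of 6 sgRNAs lower, adjusted p = 0.0131), with no overlap, and the adjusted p became 0.106 without vehicle 1. Its immediate neighbours PGAP3, MIEN1 and GRB7 had low medians too, given below with genome position. Whether loss of HER2 or cutting of amplified DNA lowered the ERBB2 guides was not tested. In the list of 52 genes for forward signalling by the HER2 and EGFR family 3 were lower, with a list median of −0.12. They were ERBB2, PTPN11 and JUP, a junction protein that lies in a run of low neighbours on chromosome 17 described below. PTPN11, the phosphatase SHP2 that passes receptor signals to Ras, went from 97.5 and 118 to 39.8 and 68.1 (−0.94, SD 0.46, adjusted p = 0.0146), which became 0.189 without vehicle 1 and 0.0628 without vehicle 2. JUP, the junction protein plakoglobin, had −0.73 (adjusted p = 0.0457) and lost its call without each of the 4 libraries (0.0504 to 1). ERBB3, the kinase-poor partner of HER2, had 184 and 201 at baseline and 145 and 162 in vehicle, with all 6 sgRNAs lower, and was not called (−0.27, SD 0.13, adjusted p = 1). EGFR was near 0 (186 and 196 against 181 and 196, 0.08, SD 0.16), as were CCNE1, which encodes cyclin E1 (0.02, SD 0.24), and SHOC2, a scaffold of the Ras pathway (0.11, SD 0.13). GRB2, the adaptor between receptors and Ras, had −0.31 (SD 0.39, adjusted p = 0.594).

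Beside MYC no other of the 19 genes of the MYC and MAX network was called (list median −0.07). MYC had a median of 0.22 in the libraries grown with lapatinib against the same baseline. Of 20 G1 cyclins and CDKs 1 was lower, the ubiquitin ligase subunit SKP1 at −0.92 (adjusted p = 0.00453, 0.0581 without vehicle 2), with a list median of −0.21. No gene was called in the lists of integrins and focal adhesion (38 genes, −0.03), the Wnt pathway (26, 0.06) or gastrointestinal lineage transcription factors (37, −0.00). Of the last list, the median count of KLF5 went from 125 and 123 to 63.4 and 80.6 (−0.60, SD 0.45, adjusted p = 0.111) and that of GATA6, measured with 5 sgRNAs, from 147 and 158 to 105 and 103 (−0.43, SD 0.59, adjusted p = 0.0864). Both were lower in both vehicle libraries without passing the test. When libraries were left out in turn, KLF5 passed only without vehicle 2 and GATA6 only without baseline 1.

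ARID1A, the DNA-contacting subunit of the SWI/SNF chromatin remodeller and a frequent target of loss in gastric cancer, was lower in OE19. Its median count went from 159 and 152 to 85.9 and 122 (−0.78, SD 0.58, 5 of 6 sgRNAs lower, adjusted p = 0.0245), and the adjusted p became 0.12 without baseline 2 and 0.45 without vehicle 1. It was the only one of 26 SWI/SNF genes called (list median −0.04). With lapatinib its median was 0.84 over the same baseline libraries. Of 36 chromatin regulators and readers 2 were lower (−0.23), ASH2L and KAT8 (−0.51, lost without baseline 1 at 0.065 and vehicle 2 at 0.132). ASH2L, shared by the complexes that methylate histone H3 lysine 4, went from 231 and 224 to 74.1 and 107 (−1.24, SD 0.58, adjusted p = 0.000830) and was called whichever library was left out. None of 19 SAGA coactivator genes was called (−0.09), TADA1 included (−0.40, adjusted p = 0.152).

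On the side of gain, the lists of genes known to restrain growth stayed close to the rest of the library. None of 25 genes that restrain PI3K and mTOR (list median 0.02), of 30 that restrain Ras and MAPK (0.06), of 36 cell cycle brakes and p53 axis genes (0.07), of 27 in the Hippo pathway (0.05), of 20 in TGF-beta and SMAD signalling (0.05) or of 27 in intrinsic apoptosis (0.01) was called in either direction, against an all-gene median of 0.01. Scaling on the control guides moved the median of all genes by −0.19, which is more than any of these list medians lies above 0. NF1, which switches Ras off, had 241 and 244 at baseline and 296 and 260 in vehicle (0.21, SD 0.12, 0 of 6 sgRNAs lower). BAX, which permeabilises mitochondria in apoptosis, had 0.19 (SD 0.27) and CSK, the kinase that inhibits Src, 0.17 (SD 0.28). KEAP1, which marks Nrf2 for degradation, had −0.02 (SD 0.26), and in its list of 18 genes (list median −0.08) UBE2M, an enzyme that activates cullins by NEDD8, was the 1 gene lower (−0.73, adjusted p = 0.0229, lost without baseline 2 at 0.663, vehicle 1 at 0.11 and vehicle 2 at 0.176).

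CCNC, which encodes cyclin C of the Mediator kinase module, came closest to a gain. Its median count was 158 and 164 at baseline and 239 and 199 in vehicle (0.53, SD 0.16), all 6 sgRNAs were higher and the libraries did not overlap. The adjusted p was 0.623 by rank aggregation and 0.0329 by the same test with factors from the control guides. Of the libraries left out in turn, only the omission of baseline 1 gave a call. DESeq2, a replicate block and the other scalings and count filters called 0 genes higher. One of its sgRNAs was among the 14 called higher singly, at 279 and 289 against 485 and 443. The other 13 belonged to 13 different genes, NKX3-2 and CTSB among them. The next genes by p on this side, PBX3 (0.23), FPR3 (0.37), NKX3-2 (0.18) and TRIM71 (0.13), did not pass either. When counts were summed over the sgRNAs of a gene and tested by edgeR's quasi-likelihood model, 104 genes were higher and 1244 lower. Rank aggregation had called 0 and 319. Of the 104, 82 had an unadjusted p under 0.05 on the higher side by rank aggregation. A sum can rest on few guides and on 1 library. SNAPC1, with sums of 477 and 511 at baseline and 882 and 600 in vehicle, was among the 104. SETD1B, a histone H3 lysine 4 methyltransferase, led with sums of 1309 and 1260 at baseline and 1781 and 1703 in vehicle (log2 fold change 0.41, adjusted p = 0.00290). CCNC was next with 1158 and 1122 against 1772 and 1497 (0.50, adjusted p = 0.00393), and MED16 of the Mediator tail followed (0.38, adjusted p = 0.00819). STK11, the kinase LKB1 that activates AMPK, had 554 and 575 against 763 and 874 (0.50, adjusted p = 0.0131). By rank aggregation SETD1B, MED16 and STK11 were not called (adjusted p = 0.724, 0.724 and 0.808). Within Mediator, looked at after CCNC had been seen, the sgRNA medians were 0.24 for CDK8, 0.14 for MED13, −0.27 for MED12 and 0.28 for MED23, none of them called by rank aggregation, while the gene sums called MED23 higher (0.32, adjusted p = 0.0249).

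Single guides showed how uneven the depletion was. Among 90615 sgRNAs with a mean normalized count of at least 100 in either condition, 1223 were at least 2-fold lower and 51 at least 2-fold higher, and 65 and 1 passed 4-fold. The guide that fell most targeted TP53RK, a kinase of the complex that modifies transfer RNAs, and went from 125 and 112 to 9.58 and 6.81 (13.02-fold lower). A guide against GTF2A2, a subunit of TFIIA, went from 176 and 198 to 19.9 and 22.7 (8.42-fold), and one against TNPO3, a nuclear import receptor, from 133 and 151 to 11.1 and 26.1 (7.30-fold). OSGEP, the catalytic partner of TP53RK in the same complex, was called as a gene (−1.43, SD 0.85, adjusted p = 0.000239) whichever library was left out. The 5 guides with the largest folds upward were each far higher in vehicle 1 than in vehicle 2, as for SNAPC1 at 35.7 and 52.8 against 335 and 37.4. Only for KCNV2, at 211 and 143 against 744 and 242, did vehicle 2 also lie above both baseline libraries. None of the 5 was called. Of 298 called genes with 6 sgRNAs tested, 67 had no sgRNA called singly, 105 had 1, 95 had 2, 27 had 3 and 4 had 4. None had 5 or 6. In 139 of the 319 all tested sgRNAs were lower. The library comes as half-libraries A and B with different guides, and 280 of the 319 had a median below 0 in both. The 11 called microRNAs had no median in half-library B and could not be among the 280. The calls were made from these same guides, so this count is not an independent check of them. The share over all genes is not given here.

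**Figure D4:**
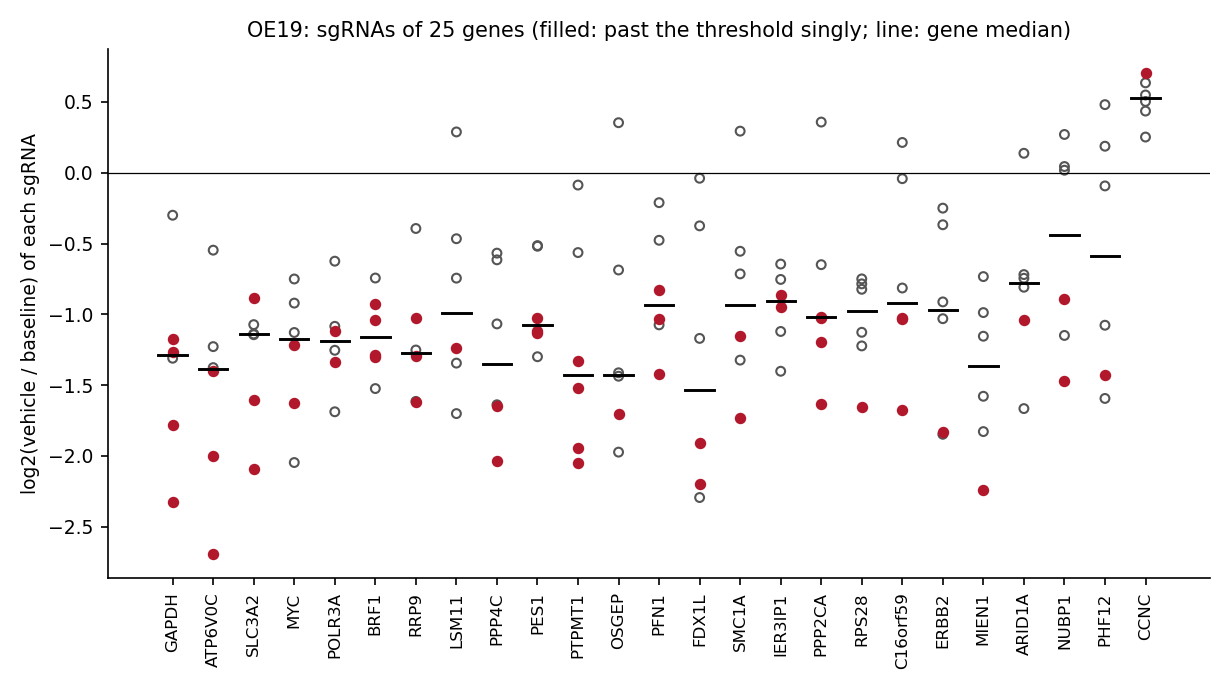
Log2(vehicle / baseline) of each sgRNA in OE19 for 25 genes, filled where the sgRNA was called singly, with a line at the gene's median. In most genes the sgRNAs spread over more than 1 log2 unit, NUBP1 and PHF12 have sgRNAs on both sides of 0, and all 6 of CCNC lie above 0.

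Guides without a target the cells use give the background. The 2000 control guides had a median of 0.19, above the all-gene median of 0.01, and none was called in either direction. The 66 genes of cells outside the epithelium had a median of 0.05 with 0 called, and the 376 olfactory receptor genes 0.05 with 2 called. The 2 were OR4F17 (−0.82) and OR4F4 (−0.66), members of a family with near-identical copies at several chromosome ends. The call of OR4F17 was lost without vehicle 1, and that of OR4F4 without each of the 4 libraries. Other called names also belong to families of near-identical copies, AGAP4, AGAP5, AGAP6, AGAP7, AGAP9, SPDYE2, SPDYE6, POLR2J3, WASH1 and FAM157B among them, and for these the gene that the guide counts refer to is uncertain.

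MicroRNA names were set against the number of copies of their hairpin sites in the genome. Of 1845 microRNA names 11 were lower (0.596%) and 0 higher, with a median of 0.02. The 5 lowest medians among the 319 called genes were those of microRNAs. For 1720 names, a hairpin from GENCODE or RefSeq contained a 20-base site beside an NGG motif, the form of site that Cas9 cuts, and exact copies of these sites with that motif were counted on both strands of GRCh37. These are sites of the hairpin, not the library's own guides, and the copies in the OE19 genome were not counted. Among the 1480 names whose sites had a median of 0 or 1 copy, 0 were called and the median was 0.04. The 203 with more than 1 and up to 10 copies had −0.06 and 3 called, the 22 with up to 100 copies −0.42 and 3 called, and the 15 with more than 100 copies −0.58 and 3 called. In these last groups 21 of 22 and 13 of 15 were below 0. Cutting at many sites is itself known to slow cells in such screens, and its part in these losses was not tested.

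The mature sequences of called microRNAs are given to show what kinds of repeat or duplicated hairpin the guides address. They are from RefSeq on GRCh38.p14, 5′ to 3′, with the seed (bases 2 to 8) in capitals, and their seeds all differ.
hsa-miR-3929: gAGGCUGAugugaguagaccacu
hsa-miR-3135b: gGCUGGAGcgagugcaguggug
hsa-miR-1299: uUCUGGAAuucugugugaggga
hsa-miR-3180: uGGGGCGGagcuuccggag

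The hairpin hsa-mir-5096, with a median of 11457 copies per site, had the lowest median of all genes, with 30.0 and 37.3 counts at baseline and 5.90 and 11.9 in vehicle (−2.10, SD 0.76, adjusted p = 0.0308). For hsa-mir-3929, with 611 copies, the counts were 13.5 and 25.96 against 5.53 and 4.54 (−1.94, adjusted p = 0.00504). For hsa-mir-1299, with 19 copies, they were 30.5 and 36.4 against 13.6 and 8.51 (−1.61, adjusted p = 0.0186). The libraries did not overlap in any of the 3, and their counts were low beside the median raw count per entry, 127 to 197 per library. The 2 loci hsa-mir-3180-5 and hsa-mir-3180-4, which share 1 mature sequence and have 4 and 2 copies, had −1.09 and −0.83. Without vehicle 2 the adjusted p rose to 0.336 for hsa-mir-5096, 1 for hsa-mir-3929, 0.662 for hsa-mir-1299, 0.236 for hsa-mir-3180-5 and 0.13 for hsa-mir-3180-4. Of the 11 only hsa-mir-7641-1 (−1.82) was called whichever library was left out, and its hairpin was not among those matched.

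Genome position was then read from gene coordinates on GRCh37, where 18595 of 19049 gene names other than microRNAs could be placed. Medians over 15 neighbouring library genes had a median of 0.01 over 18273 windows. The lowest was −0.69, on chromosome 17 from 39642388 to 39992512, where the same window had −0.20 in N87. Within it the low genes formed 1 run of neighbours. KRT36, KRT13, KRT15, KRT19, KRT9 and KRT14 lay between −0.08 and 0.23, and the next 9 genes, KRT16, KRT17, EIF1, GAST, HAP1, JUP, LEPREL4, FKBP10 and NT5C3B, lay between −1.11 and −0.66. KLHL10, KLHL11 and ACLY beyond them returned to between −0.09 and 0.00. Of the 9, 4 were called: FKBP10 (−1.11, adjusted p = 0.00264), LEPREL4 (−1.02, adjusted p = 0.00587), GAST (−0.82, adjusted p = 0.0223) and JUP. FKBP10 and LEPREL4 were called whichever library was left out, and GAST was lost without baseline 2 (0.123) and vehicle 2 (1).

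A window on chromosome 6 from 43612773 to 44418162 had a median of −0.46 against −0.08 in N87. All 15 of its genes were below 0, HSP90AB1 (−0.54) and MRPS18A (−0.55) among them, and AARS2 was the 1 called. The window around ARID1A on chromosome 1, from 26737308 to 27339341, had −0.41 against −0.05 in N87 with all 15 genes below 0 and 2 called, so ARID1A itself (1: 27019727 to 27108595, plus strand) lies among low neighbours. A window from 147574428 to 149824687 on chromosome 1, of NBPF, PPIAL4 and histone genes with close copies, had −0.54 with 0 called. At or below −0.2 there were 341 windows in OE19 and 73 in N87. Windows overlap and share genes, so these counts are not independent. Copy number of OE19 was not measured in these libraries, and no cause of these runs was tested.

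ERBB2 lies on chromosome 17 from 37844167 to 37886679. The 27 genes within 500 kb of it had a median of −0.02 in OE19, with 16 below 0 and 3 called, and of −0.32 in N87, with all 27 below 0 and 3 called. In OE19 the low values clustered on ERBB2 and its immediate neighbours: PGAP3 at −0.96 (adjusted p = 0.129), MIEN1 at −1.37 and GRB7 at −0.59 (adjusted p = 1). STARD3 at −0.05, PNMT at 0.19 and TCAP at 0.08, just beyond, were near 0. No cause of the low values at ERBB2 and its neighbours was tested. MIEN1, a small membrane-associated protein whose gene overlaps the end of ERBB2, went from 68.8 and 70.8 to 21.01 and 20.4 (SD 0.57, adjusted p = 0.00252), with no overlap, and its adjusted p became 0.0536 without vehicle 2. CDK12 (−0.68), a kinase of elongating polymerase, is the third called gene within 500 kb, and RPL19 (−0.92), a ribosomal protein just beyond that distance, was also called, CDK12 not without baseline 1 (0.0667) or vehicle 2 (0.0633) and RPL19 not without vehicle 2 (0.0536). Over the 37 listed neighbours of ERBB2 on 17q12-q21 the median was −0.02 with 3 called, against −0.26 with 4 called in N87, and over all 270 genes within 5 Mb it was 0.00 with 12 called.

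**Figure D5:**
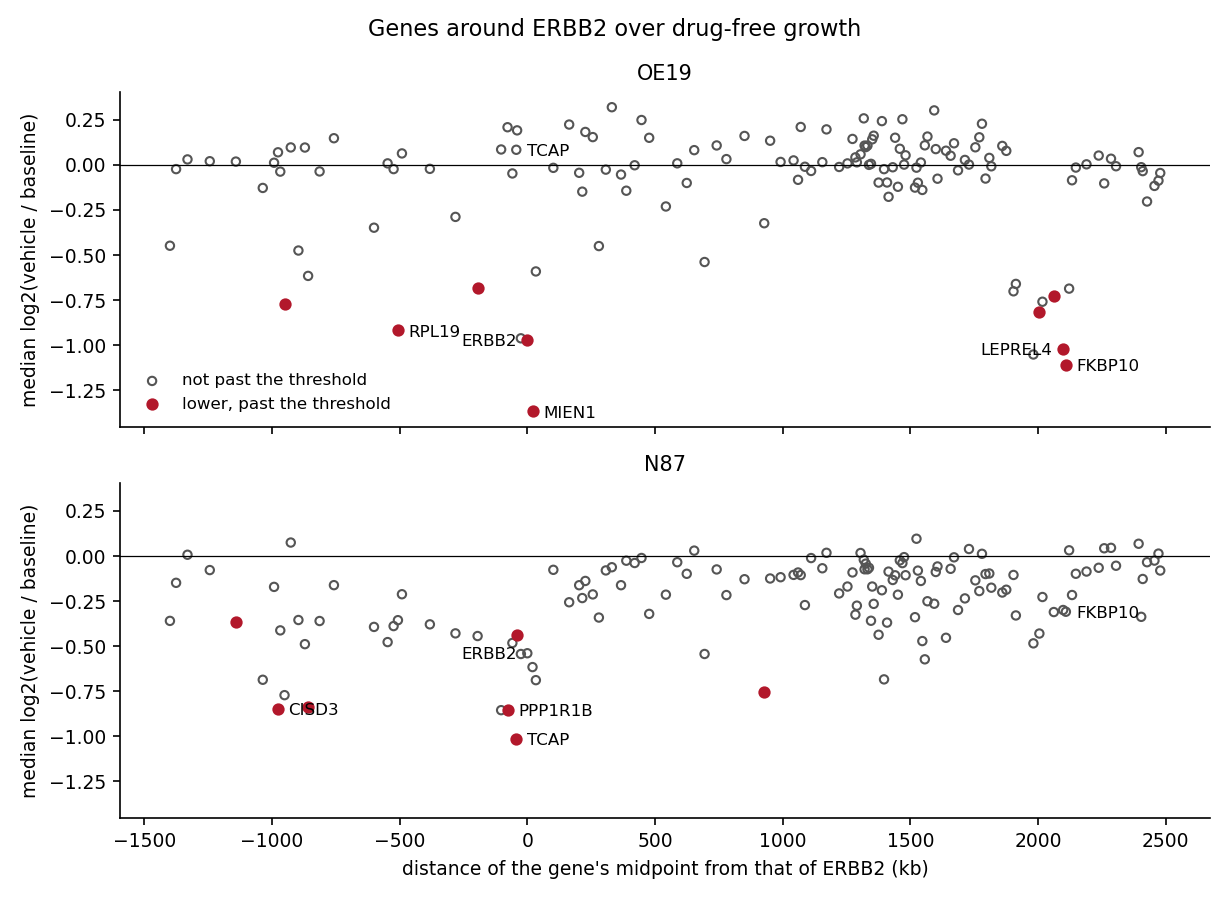
Median log2(vehicle / baseline) of genes around ERBB2 against the distance of their midpoints in kb, in OE19 (top) and N87 (bottom), filled red where called lower. OE19 shows low points at ERBB2, MIEN1, RPL19 and CDK12 and a run near FKBP10 among many genes near 0, whereas in N87 all 27 genes within 500 kb lie below 0 and TCAP is at −1.01.

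N87 gave a second reading of drug-free growth. The medians of 20893 genes correlated at r = 0.578 across genes, which are not independent replicates and share guides between the lines. Of the 319 genes lower in OE19, 163 (51.1%) were also lower in N87, where 489 of all 20894 genes tested were lower. The 163 were 33.3% of those 489. Of the 319, 312 had an N87 median below 0, and hsa-mir-3929 had no N87 value. The share of all genes with an N87 median below 0 is not given here. N87 had 12 genes called higher where OE19 had 0, a difference in counts that was not tested. The effect of the line was tested gene by gene as the interaction of line and condition in edgeR's quasi-likelihood model over 8 libraries, followed by rank aggregation. It called 40 genes lower in OE19 than in N87 (0.191%) and 8 higher (0.0383%). Of these, 6 of the 40 and 0 of the 8 were called whichever of the 8 libraries was left out.

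ARID1A had −0.78 in OE19 and 0.24 in N87 (difference −1.08, adjusted p = 7.37e-06). SLC3A2 had −1.14 and −0.23 (difference −0.97, adjusted p = 7.37e-06), PTPMT1 −1.43 and −0.30 (−1.04, adjusted p = 0.000886) and GATA6 −0.43 and 0.18 (−0.62, adjusted p = 0.00298). PHF12, a subunit of a histone deacetylase complex, had −0.59 and 0.05 (−0.68, adjusted p = 0.000886), and C15orf41, a nuclease-like protein of red cell maturation, −0.33 and −0.15 (−0.29, adjusted p = 0.000886). These are the 6 that held whichever of the 8 libraries was left out, and in all 6 OE19 was the lower line. PHF12 and C15orf41 were also called within OE19, PHF12 not without vehicle 2 (0.079).

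Of the genes for amino acid uptake, pyrimidine and folate synthesis looked up after their values had been seen, a minority were lower in OE19 than in N87 by this test. They were 2 of 10 transporters, SLC3A2 and SLC7A5, 2 of 11 pyrimidine genes and 2 of 10 folate genes. CAD had −1.09 in OE19 and −0.07 in N87 (adjusted p = 0.00298 for the line difference, 0.0546 without OE19 vehicle 1). DHODH had −0.91 and −0.03 (adjusted p = 0.0146), SLC7A5 −0.62 and −0.08 (0.00943), FPGS −0.72 and −0.15 (0.00595) and MTHFD1 −0.64 and −0.16 (0.0412). Each of these 4 lost the call without 2 or more libraries, with the highest adjusted p reaching 0.19, 0.807, 0.297 and 0.406. DUT did not differ past the threshold (−0.92 and −0.72), nor did SLC7A1 (−0.91 and −0.14, adjusted p = 0.0877).

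The 8 genes higher in OE19 were PPP1R1B, TCAP, PNMT, CISD3, KRT33A, CCNC, MED23 and HTT. The first 5 lie on 17q12-q21 and were near 0 in OE19 and low in N87. PPP1R1B had 0.21 in OE19 and −0.85 in N87 (difference 1.04, adjusted p = 6.48e-05) and TCAP 0.08 and −1.01 (1.04, adjusted p = 6.48e-05). The first lost its call without OE19 baseline 2 (0.0545) and vehicle 2 (0.764) and N87 baseline 1 (0.466) and vehicle 1 (0.0628), and the second without OE19 vehicle 2 (0.314), N87 baseline 1 (0.231) and N87 vehicle 2 (0.161). CCNC and MED23 were above 0 in OE19 and below 0 in N87 (0.53 and −0.21, and 0.28 and −0.30), with an adjusted p of 0.0463 that did not hold without 6 of the 8 libraries for CCNC and without any of them for MED23.

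The values of OE19 with lapatinib are set beside those above only as numbers, since both comparisons use the same baseline libraries. The 319 genes had a median of −0.35 with lapatinib and −0.79 with vehicle, and 32 of them were at or above 0 with lapatinib. The 286 genes of the core lists had −0.25 and −0.38. ERBB2 had 0.03 with lapatinib and −0.97 with vehicle, JUP 0.23 and −0.73, and PPP2CA 0.21 and −1.02. FDX1L was low in both at −1.34 and −1.54, and so were EIF1AX at −1.35 and −1.33 and ATP6V0C at −1.12 and −1.39.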

How the data were processed

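The deposited table held counts of sgRNA reads in 12 libraries, made by the authors from sequenced PCR products of the integrated guides. The submitters' processing notes name Bowtie2 2.3.2, FastQC 0.11.5 and MAGeCK 0.5.6, and the study's methods describe trimming, a read quality filter and mapping to the library's guides with few mismatches allowed. The 4 OE19 libraries without drug were grouped by their labels. Counts were scaled by TMM and tested per sgRNA with edgeR 4.0.16 (limma 3.58.1, R 4.3.3, no block) by its quasi-likelihood test, for sgRNAs with at least 40 counts over 4 libraries, or 80 over 8 for the line difference. One-sided p-values were ranked and combined per gene, for genes with at least 2 sgRNAs, by rank aggregation over ranks under 0.05 with an exact null, and adjusted by Benjamini-Hochberg in each direction (threshold 0.05). Printed counts were scaled by the median of ratios over 12 libraries. The scripts were tested on simulated data. DESeq2 1.42.0, other scalings and filters, a replicate block, gene sums, the half-libraries and leaving out each library were alternatives. Named genes were the 20 called lower with the smallest p and both replicate pairs in 1 direction, the next 5 on the higher side, up to 4 called members of lowest p per list, 15 genes picked for the line and drug, the 5 sgRNAs of largest fold per direction, up to 6 genes per direction of the line difference and up to 3 genes in each of the 3 lowest windows. Other genes named were chosen after their values were seen. The members and lists were chosen with earlier results of these data known. The median count per entry was 127 to 197 per library. Sequences of the library's guides were not used here, and some results are not reported here.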

Additional observations from a re-analysis of the deposited data

Results flagged for a closer look

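The results below stand out because the effect of drug-free growth differed between OE19 and N87 by a test of the difference itself, the interaction of line and condition in edgeR's quasi-likelihood model over 8 libraries, combined per gene by rank aggregation. Each value is the median over sgRNAs of the difference in log2 fold change, OE19 minus N87. The lower genes in OE19 were ARID1A (−1.08, adjusted p = 7.37e-06), SLC3A2 (−0.97, adjusted p = 7.37e-06), PTPMT1 (−1.04, adjusted p = 0.000886), PHF12 (−0.68, adjusted p = 0.000886), C15orf41 (−0.29, adjusted p = 0.000886) and GATA6 (−0.62, adjusted p = 0.00298), which were called whichever of the 8 libraries was left out.

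PGP, a phosphatase that clears side products of glycolysis, had −0.71 in OE19 and 0.21 in N87 (−0.94, adjusted p = 0.000886), was not called within OE19 (adjusted p = 0.159) and lost the difference without OE19 vehicle 2 (0.297). GPX4 (−0.71, adjusted p = 0.0306) was lost without 6 of the 8 libraries, with adjusted p up to 0.434.

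The higher genes were PPP1R1B (1.04, adjusted p = 6.48e-05), TCAP (1.04, adjusted p = 6.48e-05), PNMT (0.68, adjusted p = 0.00900), CISD3 (0.83, adjusted p = 0.0123), KRT33A (0.47, adjusted p = 0.0463) and CCNC (0.63, adjusted p = 0.0463). PNMT had 0.19 in OE19 and −0.44 in N87, CISD3 0.07 and −0.85, and KRT33A 0.08 and −0.45. All but CCNC lie on 17q12-q21, where the N87 medians were low across neighbours. PNMT and CISD3 each lost the call without 5 of the 8 libraries (adjusted p up to 0.516 and 0.753), and KRT33A and CCNC without 6. No cause of these differences was tested.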

How the results depend on the processing

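The count of called genes was steadier than that of called sgRNAs. Against 319 genes lower, 1096 and 14 sgRNAs lower and higher, 40 and 8 genes lower and higher by line and a core-list median of −0.38, one spread shared by 8 libraries gave 2237 and 166 sgRNAs, and DESeq2 gave 29 sgRNAs higher. Factors from the control guides, which moved the median of all genes by −0.19, gave 3378 and 5 sgRNAs, 1 gene higher (CCNC), a core median of −0.58 and 5 genes higher by line. Gene sums gave 1244 genes lower and 104 higher, and 10 and 1 by line. The stricter count filter gave a core median of −0.36 and 4 genes higher by line, as did ranks up to 0.25 (4), and total counts a core median of −0.40. Half-library A gave 101 genes lower and a core median of −0.36, and B gave 36 genes, each from fewer sgRNAs. Signs turned for NUBP1 (0.044) and SLC7A5 (0.0051) in half-library A and for FARSB (0.15) and PHF12 (0.19) in B. The cause was not tested for the other settings. Leaving out 1 library gave 265 to 17422 sgRNAs lower, 15 to 16143 higher, 188 (without vehicle 2) to 317 genes lower, 0 to 1 higher, core medians of −0.43 to −0.34, and 16 to 46 genes lower and 0 to 27 higher by line. A lone library was then assumed to vary like the other group. Without vehicle 2, 136 of the 319 genes were still called. Of 89 named genes called lower, 37 kept their call whichever library was left out.

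With the replicate number as a block, 3796 sgRNAs were lower and 735 higher, and 322 genes were lower, 265 of them shared with the 319. Over the sgRNA entries, the log2 difference between the 2 baseline libraries correlated at 0.0746 with that between the 2 vehicle libraries. The numbers were therefore not taken to pair the samples.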
